A study of Mus musculus with 6 samples.

Results

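The cells described are bone marrow neutrophils, in clusters read here as neighbouring stages of their development. No order of the cells in time was computed, and the word step names the difference between the clusters. Every kept cell of the series carries a deposited cluster number from clustering at a resolution of 0.1, and the comparison is of cluster 3 (7914 cells) with cluster 0 (19261 cells), 27175 of 69776 kept cells in all. The cells were CD11b+ marrow cells, taken by magnetic selection from C57Bl/6 mice aged 2 months for which no treatment is named, and sequenced by droplet capture of the 3' ends of transcripts. The 3 mandibular-derived libraries (replicates 1, 2 and 3) were male, and of the 3 femur-derived libraries replicate 1 was female and replicates 2 and 3 were male. The labels describe the femur marrow as coming from femurs and tibiae and do not give the number of mice behind a library, so every p-value below measures the spread between these 6 libraries and may be technical in part. The selection takes cells by a surface integrin chain and not by stage.

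Neutrophils build their granules in sequence as they mature, each kind filled with the proteins being made at that moment. Primary (azurophil) granules with myeloperoxidase and elastase come first, secondary (specific) granules with lactoferrin and cathelicidin follow, and tertiary granules with gelatinase come last, before the receptors of the mature cell dominate. The timing of transcription thus orders the granules, and a transcript can be gone while its protein is kept in the cell.

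Each library gave both clusters, with 1987 to 6951 cells in cluster 0 and 994 to 2293 in cluster 3, and the summed counts of a cluster in a library held 6729872 to 91571110 unique molecular identifiers (UMIs, each standing for 1 captured transcript molecule). All but 47 cells of cluster 0 and all but 1 of cluster 3 carried a deposited reference label of neutrophil. Femur replicate 3 held 6951 of the cells of cluster 0, and femur replicate 1 stood apart by the number of UMIs per cell in cluster 3 and by cycling cells in cluster 0. Cells that share a barcode with a cell of another library numbered 423 in the 2 clusters, and leaving them out gave 8211 calls for the step against 8218.

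Cells of cluster 3 held fewer transcripts than cells of cluster 0 in each library. The mean was 12276 ± 823 UMIs per cell (SD, n = 6) in cluster 0, with a range of 10939 to 13188, and 7507 ± 964 in cluster 3, with a range of 6533 to 9222, so the libraries of the clusters did not overlap. Within a library the content was 1.37 to 1.78 times higher in cluster 0. Genes detected per cell went from 2472 ± 131 to 1847 ± 158 (SD, n = 6), and the mitochondrial share of UMIs from 0.698% ± 0.153 to 0.370% ± 0.0598. Because of this difference in content, levels are given on more than 1 scale, and a gene named in normalised CPM is said to differ per cell where that changes its call or its direction. Normalised CPM are UMIs per 1000000 after the trimmed mean of M-values (TMM) scaling, total CPM are the same without that scaling, and UMIs per cell are the plain mean count of a cell. The median of all 11241 genes tested lay at a log2 difference of -0.03 with TMM, -0.25 with the total of UMIs and -0.96 per cell, and a difference on any of these scales is read against that median.

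**Figure D1:**
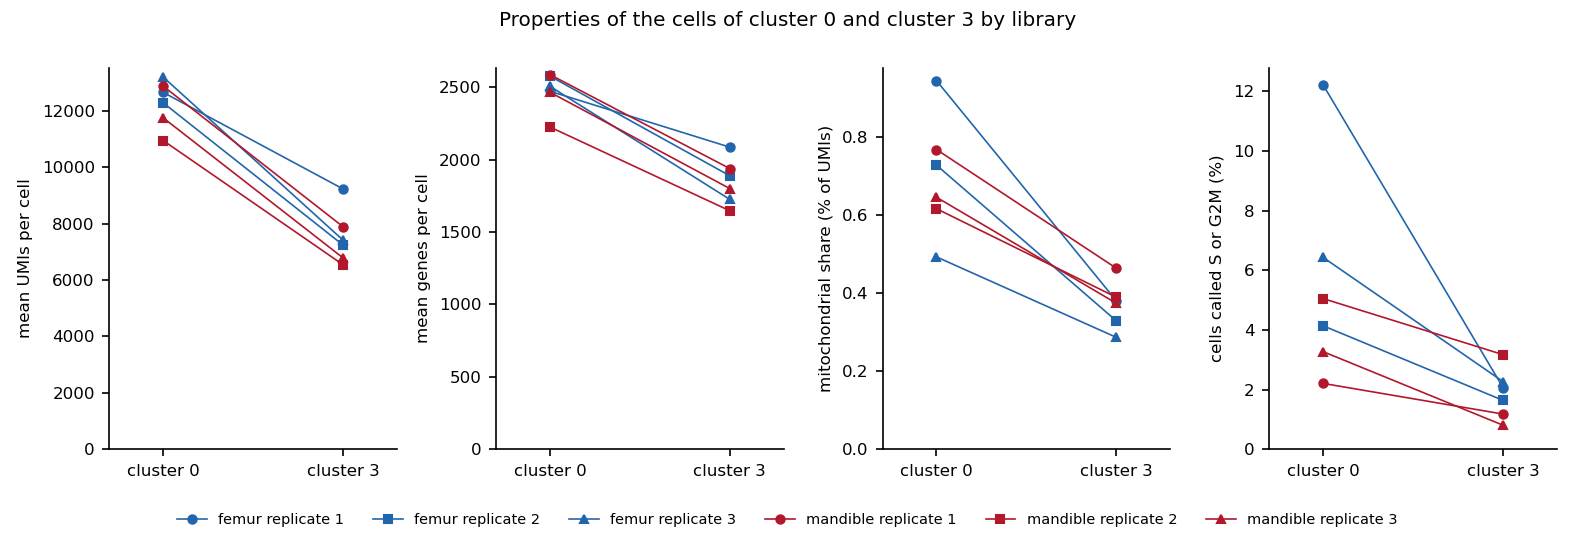
Plots of 4 properties of the cells by library, one line for each of the 6 libraries: mean UMIs per cell, genes detected per cell, mitochondrial share of UMIs (percent) and the share of cells given an S or G2M phase (percent), in cluster 0 and in cluster 3. Each of the 4 was lower in cluster 3 in all 6 libraries. The S share alone, not plotted, was lower in 2 of the 6.

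In the fit across all genes 8218 of 11241 genes tested passed an adjusted p of 0.05 in edgeR's quasi-likelihood test (73.1%), 3948 higher in cluster 3 (35.1%) and 4270 lower (38.0%). The 6 libraries of each cluster did not overlap in 4541 genes (40.4%). The clusters were made from the expression of the same cells, so these calls are a description of how the clusters differ and not a test. Counts of list members called in normalised CPM are to be read against those percentages. With the total of UMIs in place of TMM, 2785 genes were higher and 5623 lower, and per cell 545 were higher and 9471 lower. Counts of list members per cell are to be read against these 545 and 9471 of 11241 genes, since most genes were lower on that scale. Differences of more than 2-fold were held by 808 genes that were higher and 1911 that were lower, and differences of more than 4-fold by 67 and 556.

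Cluster 0 was not uniform. At a resolution of 0.5 nearly all of it fell into 4 finer clusters, called fine clusters 11, 4, 7 and 3, while 96.7% of cluster 3 fell into 1 (fine cluster 2). Fine cluster 11 held 5.32% of cluster 0, of which 41.7% had an S or G2M phase. Fine cluster 4 held 34.7%, with 11328 ± 1262 UMIs per cell (SD, n = 6), and fine cluster 3 held 36.1%, with 9356 ± 1312. Fine cluster 7 held 23.2% and had the highest content, 18868 ± 2784 UMIs per cell. It carried transcripts that were high in later clusters (Il1b at 373 total CPM, against 13.5 in fine cluster 4 and 16.6 in fine cluster 3) beside early ones (Fcnb at 223, against 17.4 in fine cluster 3). Scrublet, which scores each barcode for its likeness to a mixture of 2 cells, was also run per library. Its automatic threshold called under 0.5% of barcodes in 3 of the 6 libraries, so no barcode was removed and only the order of the scores is given. Of fine cluster 7, 42% of barcodes lay among the top 6% of scores of their library (34 to 73% over the libraries), against 7% of fine cluster 11, 2% of fine cluster 4, 1% of fine cluster 3 and 2% of cluster 3. The step is therefore also given without fine cluster 7 beside the log2 differences of named genes and the list medians that it turns or moves by more than 1.5 times, an alternative chosen after the data were seen, with which the content was still 1.33 to 1.57 times higher in cluster 0. In that alternative 3877 of 10739 genes tested were higher in cluster 3 and 4287 lower. List counts without fine cluster 7 are to be read against these.

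As chosen examples of genes that differed at the step, 4 genes that were lower in cluster 3 and 2 that were higher are shown by sequence. The 250 bases before their RefSeq start are printed 5′ to 3′ on the gene's strand, from a RefSeq promoter table for GRCm38.p6. Capitals mark matches to TTNNGNAA on either strand (TTNCNNAA when reversed), a pattern of the kind bound by C/EBP factors, found in 36.8% of the 32851 promoter windows of that length. Ltf (chr9:111019042-111019291, plus strand), Camp (chr9:109849457-109849706, minus strand), Ngp (chr9:110419558-110419807, plus strand) and Chil3 (chr3:106167565-106167814, minus strand) come first, followed by Mmp8 (chr9:7558179-7558428, plus strand) and Retnlg (chr16:48872358-48872607, plus strand).
Ltf: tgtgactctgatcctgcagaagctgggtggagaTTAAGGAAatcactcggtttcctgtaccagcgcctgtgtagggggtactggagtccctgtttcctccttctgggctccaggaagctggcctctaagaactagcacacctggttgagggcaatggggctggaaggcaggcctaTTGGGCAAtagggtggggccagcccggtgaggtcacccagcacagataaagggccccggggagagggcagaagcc
Camp: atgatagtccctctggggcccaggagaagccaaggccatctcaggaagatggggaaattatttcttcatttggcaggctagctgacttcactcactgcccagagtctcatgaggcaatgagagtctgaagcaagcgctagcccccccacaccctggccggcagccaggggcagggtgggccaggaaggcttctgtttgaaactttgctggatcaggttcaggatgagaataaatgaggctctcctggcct
Ngp: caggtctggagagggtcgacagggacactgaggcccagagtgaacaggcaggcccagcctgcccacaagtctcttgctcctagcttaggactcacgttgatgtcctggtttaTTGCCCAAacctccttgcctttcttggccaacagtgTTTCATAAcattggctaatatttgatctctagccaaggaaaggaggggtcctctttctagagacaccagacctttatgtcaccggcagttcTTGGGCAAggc
Chil3: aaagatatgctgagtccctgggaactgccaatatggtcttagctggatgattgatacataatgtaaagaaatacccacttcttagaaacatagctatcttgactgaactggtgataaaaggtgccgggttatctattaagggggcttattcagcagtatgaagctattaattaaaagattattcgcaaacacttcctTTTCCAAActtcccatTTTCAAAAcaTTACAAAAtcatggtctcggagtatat
Mmp8: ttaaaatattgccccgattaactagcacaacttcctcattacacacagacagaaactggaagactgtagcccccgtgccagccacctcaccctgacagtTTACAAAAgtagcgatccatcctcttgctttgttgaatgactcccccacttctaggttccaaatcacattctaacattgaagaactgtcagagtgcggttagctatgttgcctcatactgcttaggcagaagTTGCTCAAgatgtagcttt
Retnlg: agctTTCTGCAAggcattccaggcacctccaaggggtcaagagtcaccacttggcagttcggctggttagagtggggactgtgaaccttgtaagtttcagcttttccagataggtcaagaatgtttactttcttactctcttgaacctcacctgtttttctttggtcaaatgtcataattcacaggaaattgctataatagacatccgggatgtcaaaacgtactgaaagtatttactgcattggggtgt
Ngp and Chil3 had 3 matches each, Ltf and Mmp8 had 2, Retnlg had 1 and Camp had 0. The window of Lcn2, also lower in cluster 3, had 1 match and is not printed. A match describes letters in these windows only.

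Most transcripts of the secondary granule list were lower in cluster 3. Of its 11 genes tested, 7 were lower in cluster 3 (Ltf, Camp, Ngp, Lcn2, Chil3, Fcnb and Orm1). Another 2 were higher (Pglyrp1 and Hp) and 2 passed in neither direction (Cd177 and Olfm4). The median log2 difference of the 11 was -1.79, against -0.03 over all genes. Together they made up 10.2% ± 0.368 of all UMIs in cluster 0 and 3.02% ± 0.703 in cluster 3 (SD, n = 6), or 1138 to 1387 UMIs per cell against 126 to 300. All 11 were lower per cell, as were 9471 of all 11241 genes tested. Fcnb and Orm1, described below as an early lectin and an acute-phase protein, were counted in the list and had its 2 lowest values. Without them the middle gene of the list is Lcn2 (value below) and not Ngp.

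Ltf, on chromosome 9 (mm10, 111019271 to 111042767), encodes lactoferrin, the iron-binding protein that defines the specific granule. Its level in cluster 0 was 10996, 12210 and 13743 normalised CPM (lowest, median and highest of 6 libraries), and in cluster 3 it was 1007, 3462 and 4354. The libraries of the clusters did not overlap, and the log2 difference was -2.11 ± 0.20 (SE), with 163 UMIs per cell in cluster 0 and 21.2 in cluster 3. The lowest value of cluster 3 was that of femur replicate 2, and without that library the log2 difference was -1.87.

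Camp, the cathelicidin antimicrobial peptide gene, had 24175, 27754 and 33771 normalised CPM in cluster 0 and 2349, 5889 and 7912 in cluster 3. The clusters did not overlap, the log2 difference was -2.39 ± 0.15 and the content went from 373 to 38.8 UMIs per cell. Ngp, the neutrophilic granule protein, went from 29751, 32116 and 35594 to 4235, 10723 and 13603 normalised CPM, a log2 difference of -1.79 ± 0.14, also without overlap. In Ltf, Camp and Ngp alike the lowest level in cluster 3 was that of femur replicate 2, and without that library the log2 differences of Camp and Ngp were -2.22 and -1.63.

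Lcn2, which encodes the iron-chelator-binding lipocalin of the same granules, moved far less. It had 11196, 12399.7 and 14405 normalised CPM in cluster 0 and 5335, 8106 and 10703 in cluster 3, and the log2 difference was -0.64 ± 0.08. Chil3, which encodes a chitinase-like lectin, moved more, from 4039.9, 4332 and 5363 to 241, 541 and 702 normalised CPM, a log2 difference of -3.25 ± 0.15. Neither gene overlapped between the clusters.

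Fcnb, which encodes ficolin B, a pattern-recognition lectin of early neutrophils, was nearly absent from cluster 3. Its levels were 152, 222 and 349.6 normalised CPM in cluster 0 and 2.49, 5.77 and 14.1 in cluster 3, without overlap and with a log2 difference of -5.11 ± 0.13. Orm1, an acute-phase orosomucoid with near-identical copies among which reads could be split, had the lowest log2 difference of the genes named by the rule on levels, -5.48 ± 0.17, from 71.4, 91.8 and 131 to 0.679, 1.33 and 5.51.

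Not all members of the list moved down. Pglyrp1, a peptidoglycan-binding protein, and Hp, haptoglobin, were higher by 0.40 ± 0.04 and 0.37 ± 0.04 on the log2 scale in normalised CPM, with overlapping libraries, but lower per cell (for Pglyrp1, 27.0 UMIs in cluster 0 and 18.5 in cluster 3). Cd177 (log2 difference -0.10 ± 0.06) and Olfm4 (-0.19 ± 0.11) did not pass, and both were lower per cell and without fine cluster 7 (-0.21 and -0.26). Both also passed as lower by the total of UMIs (-0.32 and -0.405), with no filter (-0.195 and -0.28) and in G1 cells (-0.166 and -0.26). With fine cluster 3 in place of cluster 0 both passed as lower as well (-0.333 and -0.645). Olfm4 did so too without femur replicate 3 (-0.305) and without mandible replicate 2 (-0.282).

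**Figure D2:**
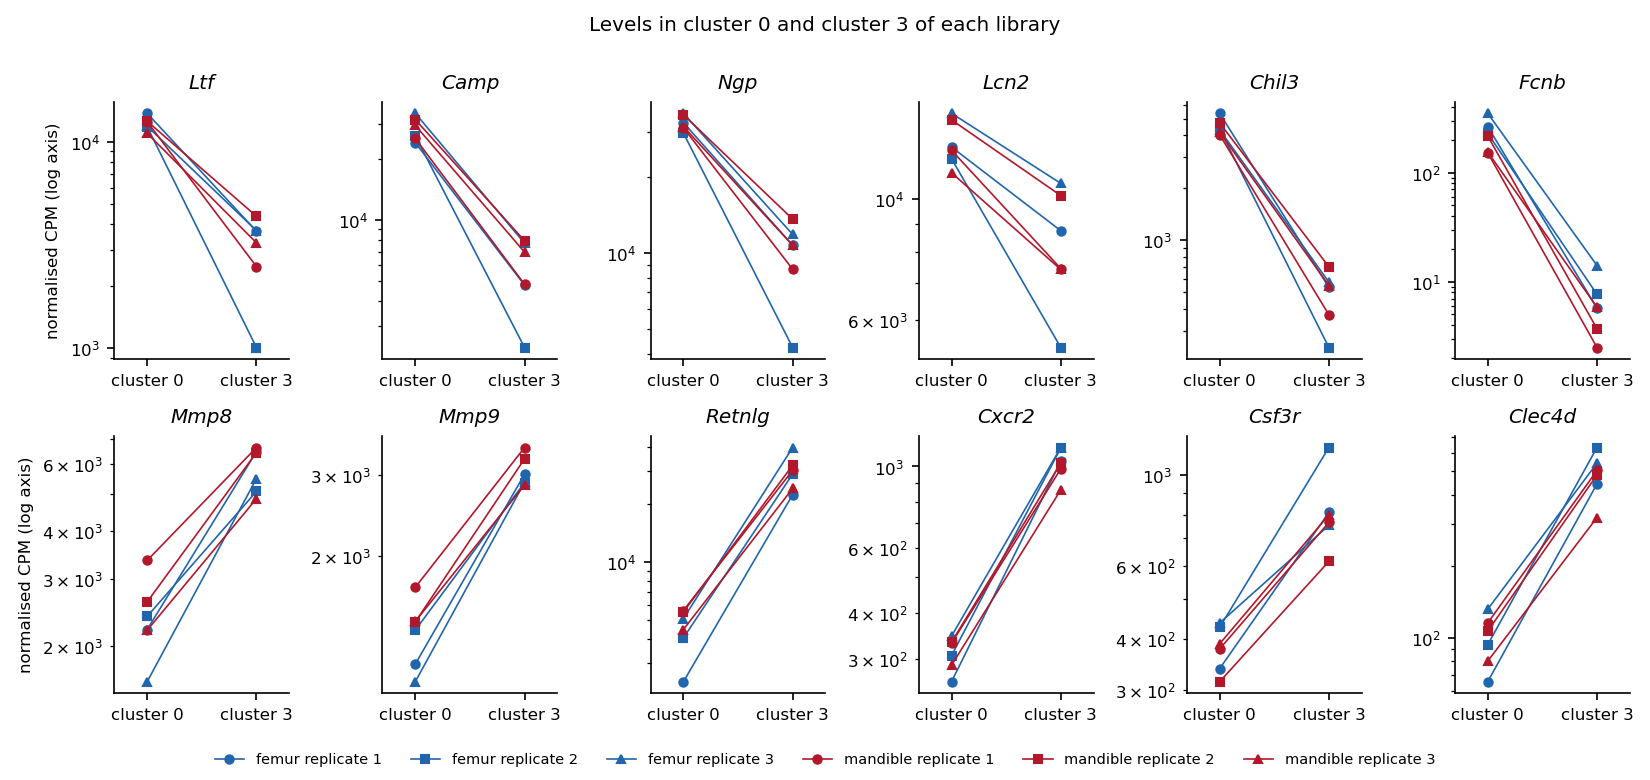
Level of 12 genes in cluster 0 and cluster 3 in normalised CPM (log axis), one line for each of the 6 libraries. Ltf, Camp, Ngp, Chil3 and Fcnb go down in every library, and Mmp8, Mmp9, Retnlg and Cxcr2 go up in every library.

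The tertiary granule genes were higher in relative level. Of 9 tested, 8 were higher in cluster 3 and 1 was lower, with a median log2 difference of 0.94. Per cell the median was 0.00, with 4 higher and 3 lower, while the median over all genes was -0.96. With fine cluster 3 in place of cluster 0, each of the 8 lay lower than with the whole of cluster 0. Slc11a1 was then at 1.31, Adam8 at 0.754, Mmp9 at 0.409 and Cfp at 0.337. Mmp25 was at 0.306, Itgb2 at 0.194, Mmp8 at 0.155 and Itgam at -0.227. Mmp8, neutrophil collagenase, had 1611, 2300 and 3354 normalised CPM in cluster 0 and 4871, 5971 and 6640 in cluster 3. Its log2 difference was 1.31 ± 0.09, the clusters did not overlap and its content went from 31.7 to 41.1 UMIs per cell. Mmp9, the gelatinase B gene for which these granules are named, had 1070, 1412 and 1711 normalised CPM in cluster 0 and 2848, 2945 and 3431 in cluster 3. That is a log2 difference of 1.17 ± 0.06 without overlap, and both genes had a higher level in cluster 3 than in any of the neutrophil clusters 4, 0, 2 and 1 (for Mmp9, 2833 total CPM in cluster 3 and 2349.6 in cluster 2, the next).

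The remaining members of the tertiary list were higher, with 1 exception. Slc11a1, a metal transporter of the phagosome, was higher by 1.77 ± 0.06 on the log2 scale, Adam8, a membrane metalloprotease, by 1.29 ± 0.06 and Mmp25, a membrane-bound matrix metalloprotease, by 0.94 ± 0.05, which per cell did not pass (0.0047). The integrin chains Itgb2 (0.54 ± 0.04) and Itgam (0.18 ± 0.05, or 0.12 without fine cluster 7), which together form the receptor that holds CD11b, were higher in normalised CPM and lower per cell. Itgam was at -0.03 by the total of UMIs and did not pass with no filter on low counts (0.0915). Cfp, which encodes properdin, was higher by 0.76 ± 0.05 in normalised CPM and did not pass per cell (-0.17). Lyz2, lysozyme, was the member that was lower, by -0.41 ± 0.05.

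The levels within cluster 0 divided the step further. They are total CPM, given as mean ± SD over the 6 libraries. Mmp8 stood at 687 ± 290.1 in fine cluster 4, at 5312 ± 1063 in fine cluster 3 and at 5420.1 ± 798 in cluster 3, so its log2 difference was 3.03 ± 0.42 between the finer clusters and 0.04 ± 0.17 from fine cluster 3 to cluster 3, the latter higher in 4 of 6 libraries. Ltf did the reverse, at 14419.8 ± 1243, 15196 ± 1540.5 and 2817 ± 1016, with log2 differences of 0.07 ± 0.06 and -2.54 ± 0.70. In the fit with fine cluster 3 in place of cluster 0, Mmp8 was higher in cluster 3 by 0.155 on the log2 scale and Ltf lower by -2.41. Most of the difference of Mmp8 thus lay between the finer clusters, and that of Ltf between fine cluster 3 and cluster 3.

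Other genes differed over both intervals (fine cluster 4 to fine cluster 3, then fine cluster 3 to cluster 3, as log2 differences with SD). Mmp9 differed by 1.47 ± 0.16 and then 0.30 ± 0.07, and Retnlg by 3.27 ± 0.09 and then 1.94 ± 0.18. Camp differed by -0.79 ± 0.09 and then -2.21 ± 0.46, and Chil3 by -1.18 ± 0.11 and then -2.75 ± 0.41. Fcnb had most of its difference between fine clusters 4 and 3 (-4.55 ± 0.55, then -1.56 ± 0.41), as did Ptma, the prothymosin alpha gene of proliferating cells (-2.49 ± 0.29, then -0.31 ± 0.27). Clec4d and Ccl6 had most of theirs between fine cluster 3 and cluster 3 (1.93 ± 0.34, then 3.44 ± 0.26, and 1.27 ± 0.41, then 3.75 ± 0.31). The finer clusters were drawn from the same expression values, so these too are descriptions.

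**Figure D3:**
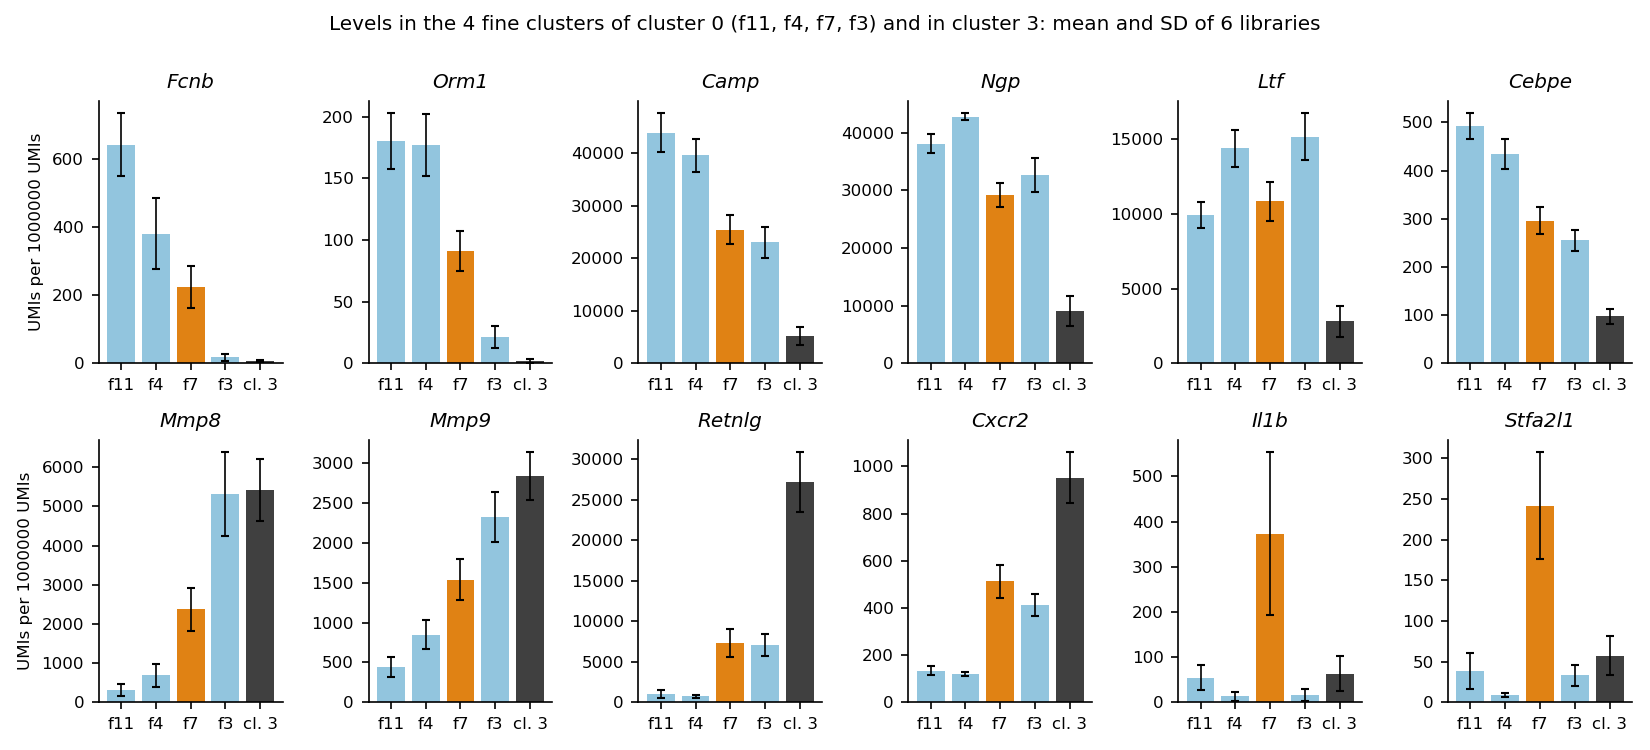
Level of 12 genes in the fine clusters 11, 4, 7 and 3 of cluster 0 and in cluster 3, in total CPM (UMIs per 1000000 UMIs, bars from 0), as mean and SD of the 6 libraries. Mmp8 is at 5312 in fine cluster 3 and 5420.1 in cluster 3, while Ltf is at 15196 and 2817, and fine cluster 7 carries Il1b at 373.

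Serine protease transcripts of the primary granules were low in both clusters. Of 7 primary granule genes tested, 2 were higher, 1 was lower and 4 passed in neither direction, and together they held 10.6 UMIs per cell in cluster 0 and 16.9 in cluster 3, of which Srgn alone held 16.7 in cluster 3. Elane, neutrophil elastase, had 2.16, 4.67 and 6.55 normalised CPM in cluster 0 and 2.26, 4.28 and 10.7 in cluster 3, with overlapping libraries and a log2 difference of 0.15 ± 0.14. It did not pass, though it did as higher with fine cluster 3 in place of cluster 0 (0.483). In cluster 4, which carries the earlier neutrophil precursors' genes, it stood at 1058 total CPM. Mpo (-0.23 ± 0.18), Prtn3 (-0.38 ± 0.20) and Ctsg (-0.28 ± 0.29, or 0.21 without fine cluster 7), which encode myeloperoxidase, proteinase 3 and cathepsin G, likewise did not pass. Per cell Elane (-0.81), Mpo (-1.18), Prtn3 (-1.31) and Ctsg (-1.23) were lower. Prtn3 did pass as lower without fine cluster 7 (-0.41), without mandible replicate 3 (-0.57), with no filter (-0.46), by the total of UMIs (-0.60) and in the femur libraries alone (-0.93). Without femur replicate 1 it was at -0.20 and did not pass, and in the mandible libraries alone it was at 0.23 and did not pass. Ms4a3, a membrane protein of granulocyte progenitors, was lower (-3.48 ± 0.15), but its difference turned in direction with fine cluster 3 in place of cluster 0 (closing section). Srgn, the proteoglycan on which granule proteins are packed (1.61 ± 0.08, or 2.45 without fine cluster 7), and Ctsc, the protease that activates the granule serine proteases (1.54 ± 0.13), were higher.

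Receptors of the mature neutrophil were mostly higher in cluster 3. Of 24 tested, 20 were higher, 2 were lower and 2 passed in neither direction, with a median log2 difference of 1.00, or 0.07 per cell, where 9 were higher and 7 lower. Cxcr2, the chemokine receptor through which neutrophils leave the marrow, had 259.8, 318 and 346 normalised CPM in cluster 0 and 863, 1027 and 1126 in cluster 3. The clusters did not overlap, the log2 difference was 1.72 ± 0.06 and the content went from 4.09 to 7.18 UMIs per cell. It was higher still in cluster 2, at 1241 total CPM against 952 in cluster 3.

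Csf3r, the receptor for granulocyte colony-stimulating factor, had 315, 383 and 437 normalised CPM in cluster 0 and 616, 782 and 1163 in cluster 3, without overlap. Its log2 difference was 1.09 ± 0.07, or 1.75 without fine cluster 7, and the highest value in cluster 3 was that of femur replicate 2. Per cell Csf3r did not pass (0.16). Clec4d, a C-type lectin that senses mycobacterial and fungal glycolipids, had the highest log2 difference of the list, 2.31 ± 0.10, or 4.16 without fine cluster 7. Its levels were 65.4, 100.1 and 132 normalised CPM against 320.1, 494 and 630.2.

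Tlr2 (1.86 ± 0.07), a receptor for bacterial lipoproteins, Fpr1 (1.60 ± 0.06), the formyl peptide receptor, Clec4e (1.55 ± 0.05), a C-type lectin, and Ccr1 (1.48 ± 0.06), a chemokine receptor, were higher on the log2 scale. Il1r2, the decoy receptor for interleukin 1, was higher by 1.12 ± 0.06, or by 1.90 without fine cluster 7. Both members that were lower are known in neutrophils too: Ltb4r1, the leukotriene B4 receptor, at -0.80 ± 0.06, and Ly6g, the surface antigen used to stain mouse neutrophils, at -0.20 ± 0.06, or -0.32 without fine cluster 7. Ly6g did not pass in the femur libraries alone (-0.15) or without the library block (-0.18).

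Genes of marrow retention and adhesion were split, with 5 of 11 higher, 5 lower and a median of -0.37, or -0.13 without fine cluster 7. Per cell 1 was higher and 7 were lower (median -1.30). Cxcr4, the receptor for the marrow chemokine Cxcl12, was higher in normalised CPM by 0.83 ± 0.05 and did not pass per cell, at 1.68 UMIs in cluster 0 and 1.61 in cluster 3. The 2 chains of the integrin VLA-4 were both lower, Itgb1 by -1.50 ± 0.08 and Itga4 by -0.64 ± 0.09, or -0.26 without fine cluster 7. Selplg, which encodes the ligand of P-selectin, was higher by 1.48 ± 0.05.

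Transcription factors differed in both directions. Of 22 tested, 14 were higher and 6 lower, with a median of 0.55, while per cell 5 were higher and 14 lower, with a median of -0.38. Cebpe, the C/EBP factor needed for secondary granule genes, had 275, 319.7 and 362 normalised CPM in cluster 0 and 77.3, 117 and 121 in cluster 3, without overlap, a log2 difference of -1.59 ± 0.07. Gfi1, a transcriptional repressor that acts in early granulopoiesis, was lower by -2.51 ± 0.16 and Myb, a progenitor factor, by -1.38 ± 0.08.

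Cebpb, the C/EBP factor of later and stress-driven granulopoiesis, had 154, 203 and 259 normalised CPM in cluster 0 and 409.9, 624 and 711 in cluster 3, a log2 difference of 1.57 ± 0.07 without overlap. Junb (1.37 ± 0.08, or 2.08 without fine cluster 7), Cebpa (1.22 ± 0.08) and Mxd1 (1.08 ± 0.06), a Max partner that opposes Myc, were higher as well, and Mxd1 did not pass per cell (0.15). Spi1, which encodes PU.1, was higher in normalised CPM by 0.65 ± 0.04 and lower per cell.

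**Figure D4:**
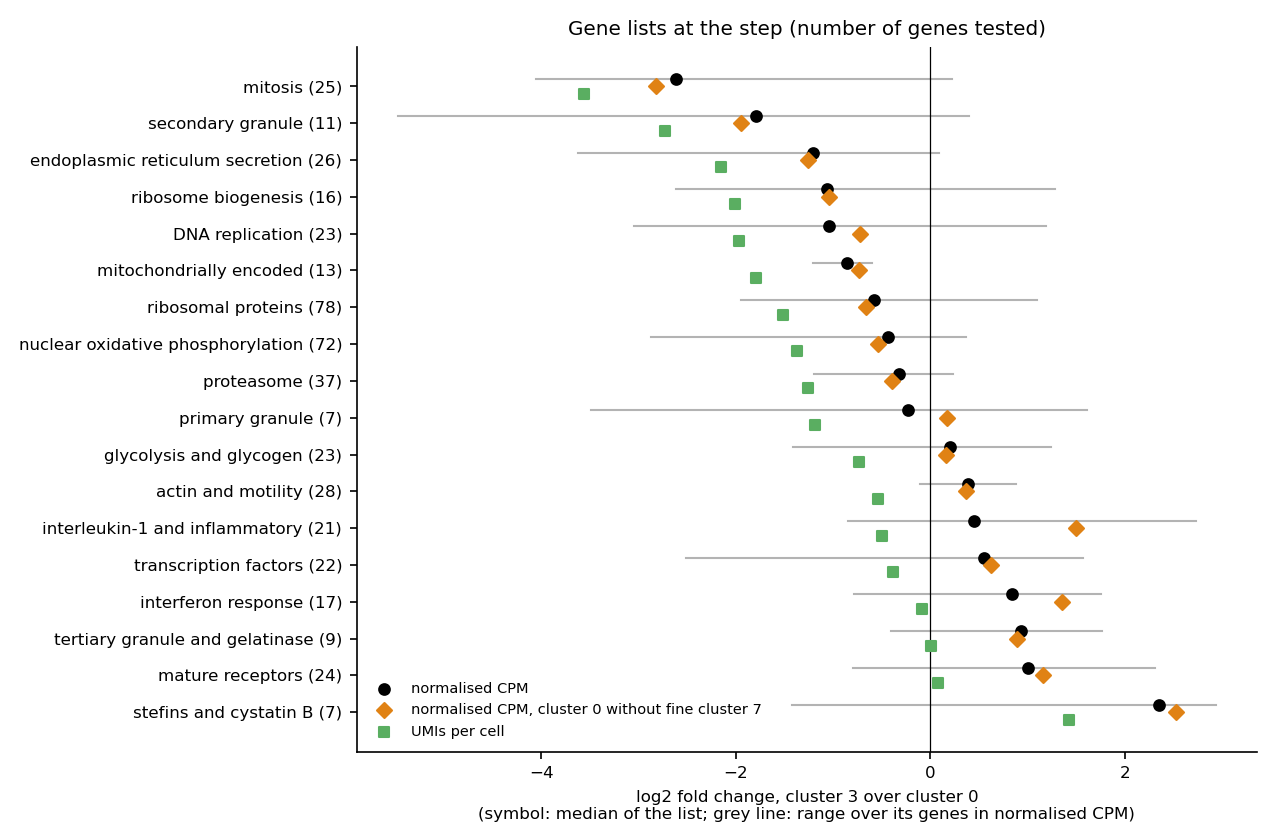
Median log2 difference of cluster 3 from cluster 0 for 18 gene lists, in normalised CPM, in normalised CPM with fine cluster 7 left out of cluster 0, and in UMIs per cell, with grey lines for the range over the genes of a list in normalised CPM. The mitosis list lies lowest, at -2.62 in normalised CPM, and the secondary granule list at -1.79, while the mature receptors lie at 1.00 and, per cell, at 0.07.

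Among abundant or strongly shifted secreted products, Retnlg, a resistin-like protein made by marrow neutrophils, was prominent. It is on chromosome 16 (mm10, 48872621 to 48874496) and had 2391, 4783 and 5610 normalised CPM in cluster 0 and 22488, 29445 and 39561 in cluster 3. The clusters did not overlap, the log2 difference was 2.74 ± 0.10 and the content went from 59.1 to 203 UMIs per cell. Prok2, a prokineticin that attracts leukocytes (2.66 ± 0.10), and Il1f9, an interleukin-1 family cytokine (2.28 ± 0.08), were higher too. Ccl6, a chemokine, was higher by 2.17 ± 0.14, or by 4.17 without fine cluster 7.

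The list of stefins and cystatin B, small inhibitors of cysteine proteases, gave 5 of 7 higher, with a median of 2.35. Per cell 4 were higher and 3 lower (median 1.43), and the summed level was 3.68 UMIs per cell in cluster 0 and 3.52 in cluster 3. The stefins are encoded by near-identical genes among which reads could be split. Stfa2 (2.94 ± 0.18), Cstdc5 (2.52 ± 0.12), Stfa3 (2.45 ± 0.15) and Stfa1 (2.35 ± 0.12) were higher. Stfa2l1 (-0.50 ± 0.10) and Cstdc4 (-1.42 ± 0.13) were lower, but both were higher without fine cluster 7 (1.43 and 1.08), and then all 7 were higher. Il1b, interleukin 1 beta, turned in the same way, from -0.84 ± 0.15 to 1.81. Of 7735 genes called in both fits, 12 were lower with fine cluster 7 and higher without it: Gpr35, Cd244a, Atf3, Prr5l, Il1b, Clec4n, Apoe, Hbb-bs, Ccl3, Ccl4, Stfa2l1 and Cstdc4. These genes were singled out after their values were seen.

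The alarmins that fill the cytosol of the neutrophil stayed close to level in relative terms. S100a8 (log2 difference 0.12 ± 0.07, or 0.02 without fine cluster 7) did not pass, though it did as higher with DESeq2 (0.14), without femur replicate 2 (0.13) and in the mandible libraries alone (0.086), and as lower per cell. S100a9 was higher by 0.21 ± 0.06 in normalised CPM, with overlapping libraries, and lower per cell, at 2030.0 UMIs in cluster 0 and 1236 in cluster 3. It did not pass without fine cluster 7 (0.11), without femur replicate 1 (0.175), mandible replicate 2 (0.198) or mandible replicate 3 (0.187), without the library block (0.223) or in the femur libraries alone (0.233). S100a6, a calcium-binding relative, was higher by 1.86 ± 0.07, from 1484, 2574 and 2676 to 6526, 8408 and 10200.2 normalised CPM.

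Cell division transcripts were lower. Of 25 mitosis genes 23 were lower and 1 was higher, with a median of -2.62, or -1.71 in G1 cells alone, and their summed level was 5.05 UMIs per cell in cluster 0 and 0.975 in cluster 3 (means of 6 libraries). Hmmr, a spindle-associated protein, at -4.05 ± 0.19, and Cenpe, a kinetochore motor, at -3.94 ± 0.14, were the lowest of those named. Of 23 DNA replication genes 16 were lower and 3 higher, with a median of -1.04, or -0.54 in G1 cells alone. The deposited phase calls put 5.55% of cluster 0 cells in S or G2M (mean of 6 libraries, 2.21 to 12.2%, the highest in femur replicate 1) and 1.85% of cluster 3 cells (0.805 to 3.17%). Taken apart, the G2M share was 3.41% in cluster 0 and 0% in cluster 3, lower in all 6 libraries. The S share was 2.14% and 1.85%, lower in cluster 3 in only 2 of the 6. In fine cluster 3 of cluster 0 the S or G2M share was 1.05%. Of the 7914 cells of cluster 3, 0 were called G2M and 152 were called S. Phase calls were made on cells of unequal depth, and with G1 cells alone 8067 genes were called.

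Genes for making secreted protein were lower. Of 26 genes of endoplasmic reticulum secretion 25 were lower and 0 higher (median -1.21), and their summed level was 14.3 to 19.9 UMIs per cell over the libraries of cluster 0 and 4.42 to 5.57 in cluster 3. Hsp90b1, the folding chaperone of that compartment, had 98.3, 113 and 135 normalised CPM in cluster 0 and 16.0, 20.4 and 22.9 in cluster 3, a log2 difference of -2.53 ± 0.08 without overlap. Of 78 ribosomal protein genes 66 were lower and 5 higher (median -0.58), and of 16 ribosome biogenesis genes 13 were lower and 1 higher (median -1.06).

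Transcripts for respiration were lower as well. All 13 mitochondrially encoded genes were lower (median -0.86; mt-Co1, a cytochrome oxidase subunit, -0.59 ± 0.07), and so were 58 of 72 nuclear genes of oxidative phosphorylation, with 6 higher (median -0.44). Proteasome genes were lower in 30 of 37, with 2 higher (median -0.33). Glycolysis and glycogen genes were split, with 15 of 23 higher and 6 lower (median 0.20, or -0.73 per cell, where 1 was higher and 21 lower). Of the 6 subunits of the NADPH oxidase, 3 were higher and 2 lower, and the catalytic subunit Cybb was one of the lower, by -1.10 ± 0.06.

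Actin and motility genes were higher in 24 of 28, with 1 lower (median 0.39). Per cell 25 of 28 were lower and 0 higher, beside 9471 lower of all 11241 genes. Tmsb4x, an actin monomer binder (0.48 ± 0.05), and Actb (0.44 ± 0.05) were higher in normalised CPM and lower per cell. Interferon response genes were higher in 13 of 17, with 2 lower (median 0.84, 1.36 without fine cluster 7, and -0.09 per cell, where 4 were higher and 7 lower). Of 16 nuclear envelope and chromatin protein genes 10 were lower and 3 higher, and Lmnb1, the lamin of the nuclear rim, was one of the higher at 1.54 ± 0.07.

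Genes outside the granule lists with large differences are given next. Zmpste24, the protease that matures lamin A, had 274, 316 and 390.5 normalised CPM in cluster 0 and 11.8, 19.3 and 22.5 in cluster 3, without overlap (log2 difference -4.13 ± 0.11). Fmnl2, a formin (-3.44 ± 0.14), Dock10, a guanine nucleotide exchange factor (-3.08 ± 0.13), Lta4h, which makes leukotriene B4 (-2.95 ± 0.07), and Pde4d, a cyclic AMP phosphodiesterase (-2.94 ± 0.12), were lower too. So were Inhba, an activin subunit (-2.68 ± 0.18), and Rpl36al (-2.63 ± 0.08), while Klra2, a lectin-like receptor (2.51 ± 0.10), Ifi204, a nucleic acid sensor (2.48 ± 0.10, or 3.97 without fine cluster 7), and Mcl1, the survival factor of neutrophils (1.15 ± 0.05), were higher.

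Markers of other cells were detected in both clusters. Of 4 erythroid genes tested 3 were lower in cluster 3, with a sum of 0.241 to 2.77 UMIs per cell over the libraries of cluster 0 and 0.108 to 0.259 in cluster 3, and without fine cluster 7 1 was higher and 0 were lower. Of 12 monocyte and macrophage genes 3 were higher and 2 lower, or 5 and 1 without fine cluster 7 (10.6 to 12.8 UMIs per cell, then 6.64 to 10.7), and the 5 B lineage genes tested summed to 0.473 to 0.810 and then 0.352 to 0.753. Their part in the results was not tested.

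Whether the step differed between mandibular-derived and femur-derived cells was tested as an interaction of site and cluster over 3 libraries against 3. The choice of the clusters compared did not use the site, but the contrast still depends on where the clustering divided the cells. No gene of 11241 passed an adjusted p of 0.05 in edgeR (0.0%), and 908 had an unadjusted p under 0.05. The lowest adjusted p was 0.306, shared by several genes, among them Retnlg (site difference of the log2 step, mandible minus femur, -0.54 ± 0.10 SE) and Adam19 (-0.42 ± 0.07). For Retnlg the log2 ratio of the clusters was 2.83 to 3.23 in the femur libraries and 2.42 to 2.54 in the mandible libraries. Retnlg was picked for its low p in this same contrast, so these ranges are no further support. The count was 72 with DESeq2, which left 9807 genes without an adjusted p, 75 without fine cluster 7 and 155 without femur replicate 3, and it was 0 without femur replicate 1, the only female library. Per cell it was 8, with no filter on low counts 90, and over 4 male libraries with a block on the library number 37. With fine cluster 3 in place of the whole of cluster 0 it was 2, Cebpb (-0.46 ± 0.06, adjusted p = 0.0148 in edgeR) and Slc9a9 (-0.53 ± 0.09, adjusted p = 0.0441 in edgeR).

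Without fine cluster 7 (an alternative chosen after the data were seen), 69 of the 75 genes had a negative site difference, mandible minus femur. All 69 were called higher in cluster 3 in the main fit, as were 35.1% of all genes. Of the 6 with a positive site difference, 5 were called lower there, as were 38.0% of all genes. Negative values made up 71 of 72 genes with DESeq2 and 125 of 155 without femur replicate 3. They made up 22 of 37 over the 4 male libraries and 2 of 5 without femur replicate 2. The 69 included Bst1, a surface enzyme of myeloid cells (-0.64 ± 0.08, adjusted p = 0.0108 in edgeR), Hif1a (-0.56 ± 0.09), Cebpb (-0.47 ± 0.08) and Cxcr2 (-0.40 ± 0.07). In the main fit these were at -0.49, -0.43, -0.26 and -0.26, with adjusted p of 0.306, 0.306, 0.550 and 0.411 in edgeR. They were taken from genes that passed in this same alternative, so their values are no further support. Beside the counts by site stands the make-up of cluster 0: fine cluster 3, the one nearest in content to cluster 3, made up 28.1 to 37.5% of it in the femur libraries and 43.4 to 45.7% in the mandible libraries. That difference of 10.7 percentage points had an exact two-sided permutation p of 0.1 (0.2 adjusted over 4 fine clusters), the smallest that 3 libraries against 3 allow. The part of this make-up in the site difference was not tested.

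**Figure D5:**
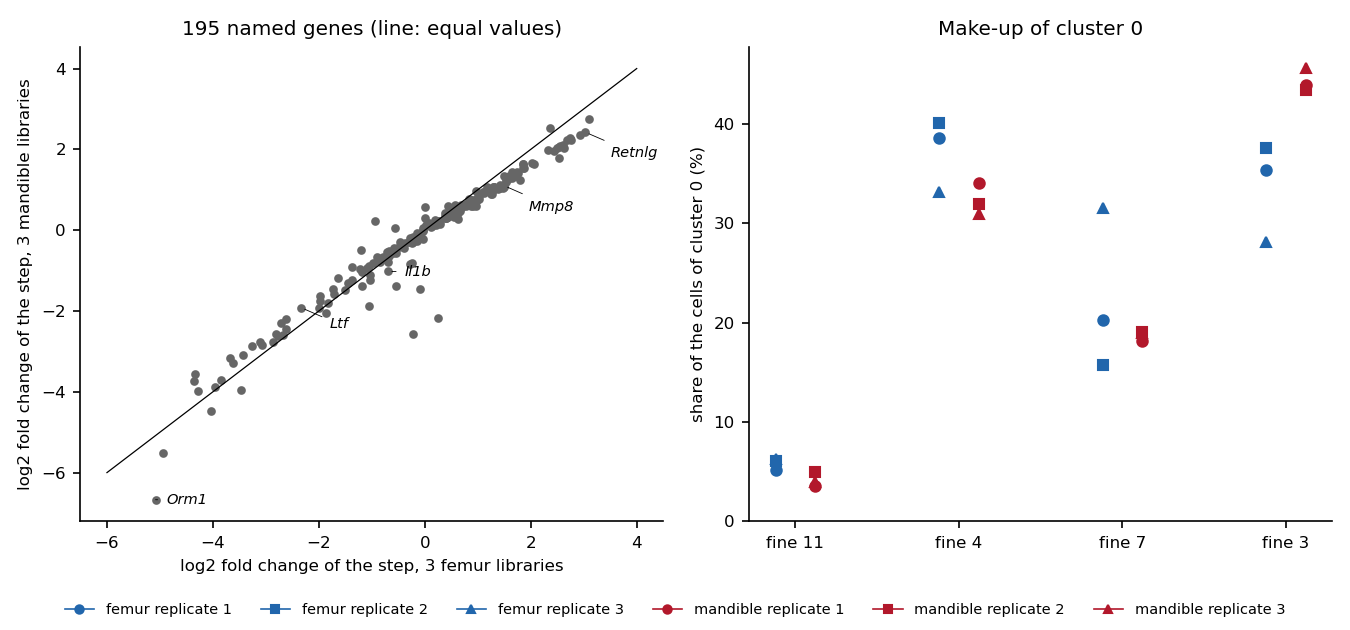
Left, the log2 difference of the step in the 3 mandible libraries against that in the 3 femur libraries for the 195 genes that the naming rule selects, with the line of equality. Right, the share of cluster 0 (percent) in its fine clusters by library, where fine cluster 3 takes 28.1 to 37.5% in the femur and 43.4 to 45.7% in the mandible.

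A set of 4 measures of the cells were compared between sites by exact two-sided permutation, with 0.1 the smallest p possible and values adjusted over the 4. Cluster 3 made up 28.3% ± 5.39 of the cells of both clusters in the femur and 32.8% ± 1.09 in the mandible (SD, n = 3 each, exact p = 0.4, adjusted 0.533). The log2 ratio of UMIs per cell was -0.684 ± 0.201 and -0.748 ± 0.0432 (exact p = 0.9). The cycling share was lower in cluster 3 than in cluster 0 by -5.60 ± 4.02 percentage points in the femur and -1.79 ± 0.723 in the mandible (exact p = 0.1, adjusted 0.4). The mitochondrial share was lower by -0.389 ± 0.179 and -0.267 ± 0.0388 percentage points (exact p = 0.4, adjusted 0.533). None of the 4 could pass 0.05 at this number of libraries.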

How the data were processed

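Single-cell RNA libraries of CD11b+ bone marrow cells (3 femur, 3 mandible) were analysed from the deposited raw counts, UMIs per gene and cell, which the authors made with Cell Ranger (7.0.1 in the submitters' processing notes, 7.1.0 in the matrix headers) on mm10. The authors removed low-quality cells and clustered the remainder with Seurat (R 4.1.0). Their deposited cell table gives each cell's cluster, reference label and phase, its mitochondrial percent and its counts per cell. A deposited table of the authors' own comparisons between clusters was not used.

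Counts were summed per library and cluster and fitted with edgeR 4.0.16 (R 4.3.3; quasi-likelihood test, TMM scaling, filterByExpr by cluster, library as a block, Benjamini-Hochberg adjusted p under 0.05). The site difference is the interaction of site and cluster in that fit. DESeq2 1.42.0, other scalings, no filter, G1 cells only, left-out libraries and other blocks were alternatives. Scripts were tested on simulated data. Scrublet (scanpy 1.11.5) was run per library after the data were seen, and no barcode was removed by it. Total CPM are counts per 1000000 of all UMIs. Gene positions are from GENCODE vM21.

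The members and the gene lists were chosen with earlier results of these data known. Genes named are the 15 largest differences each way among genes called, agreeing in direction over all 6 libraries and averaging 50 CPM or more; the 10 with the largest shifts each way in CPM; up to 5 of each list by size and level; members of the granule, receptor, adhesion and transcription factor lists; and the genes of lowest p in the site difference. The main fit does not pair samples by replicate number. The correlations of their deviations (closing section) cannot settle whether that number pairs them. Library numbers in the labels are shared between sites too, and the main fit does not block on them either (closing section).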

Additional observations from a re-analysis of the deposited data

Results flagged for a closer look

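For the genes named, the log2 ratio of cluster 3 to cluster 0 was examined in the 6 libraries for a value far from the other 5, a rule that chance meets in about 1 of 20 groups. It was met in 13 of 195 genes, 9 of them through femur replicate 2. In femur replicate 2 the ratio was -3.47 for Camp and -2.81 for Ngp, below the -2.40 to -1.99 and -1.86 to -1.37 of the other libraries, and it was -1.47 for Cybb, -1.49 for Psmd7, -1.35 for Ets1, -0.49 for Cd177, 0.066 for Ly6c2, 1.22 for Slc2a3 and 1.3 for Stfa3. For Rpl36al and Pcna femur replicate 1 stood at -3.21 and -1.53, for Icam1 mandible replicate 2 stood at -3.22, and for Dock10 mandible replicate 1 stood at -2.13. These are values, and no explanation of them was tested.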

How the results depend on the processing

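The count of genes called for the step lay between 6275 and 10016 over all settings (8218 as reported). Per cell, the log2 difference was below 0 for genes that were above it in normalised CPM: Cxcr4 -0.10, Cfp -0.17, Spi1 -0.28, Itgb2 -0.39, Tmsb4x -0.45, Actb -0.49, Pglyrp1 -0.54, Hp -0.57, S100a9 -0.72, Itgam -0.75, Elane -0.81 and S100a8 -0.82. By the total of UMIs S100a9 was at -0.00594, Itgam at -0.0329, S100a8 at -0.10 and Elane at -0.0772. Without fine cluster 7 Stfa2l1 was at 1.43, Il1b at 1.81, Hbb-bs at 0.32 and Cstdc4 at 1.08. With fine cluster 3 in place of cluster 0 Itgam was at -0.23, Prtn3 at 0.55, Ms4a3 at 0.15, Stfa2l1 at 0.90, Il1b at 2.09, Hbb-bs at 0.43 and Cstdc4 at 1.07, and in the femur libraries alone Hbb-bs was at 0.25. Without the library block Il1b, Pglyrp1, Itgam, Stfa2l1, Ly6g and S100a9 did not pass. The cause was not tested.

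The site difference, with 0 genes in edgeR as reported, gave 72 with DESeq2, 8 per cell, 90 with no filter, 75 without fine cluster 7 and 2 with fine cluster 3 alone. Left-out libraries gave 0 to 155, with 155 without femur replicate 3 and 5 each without femur replicate 2 and mandible replicate 2. With a replicate block on the replicate number it gave 0, and with a replicate block on the library number in the labels, over 4 male libraries, 37. Deviations of libraries with the same replicate number correlated at -0.09, -0.12 and 0.02. They were taken from the mean of 3 libraries a site, so these values cannot settle whether the numbers pair the libraries. The 2 pairs with the same library number correlated at 0.154, the highest of all pairs between sites, and 0.0604, and the labels do not say what that number marks. Cluster 3's share by site was -1.47 points with fine cluster 3 in place of cluster 0. The site difference of the log2 UMI ratio was 0.077 and 0.083 in the 2 alternatives by fine cluster and 0.072 with medians, and -0.138 to 0.0502 with libraries left out. The value for cycling share, cluster 3 minus cluster 0, by site, was -0.0498 points with fine cluster 3 in place of cluster 0.

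With 3 libraries a site the exact tests could not go below 0.1, and shares of cells with a UMI are not given, so the planned thinning was not run.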

Other observations

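Other gene groups are given here as values. Immediate early genes were higher in 8 of 13, with 4 lower (median log2 difference 0.56, or 1.14 without fine cluster 7), and per cell 3 were higher and 6 lower (median -0.35). Genes of lipid handling and autophagy were higher in 12 of 20, with 4 lower (median 0.53), and per cell 3 were higher and 15 lower (median -0.40). Genes of the interleukin-1 and inflammatory list were higher in 12 of 21, with 7 lower (median 0.45), and in 17 with 3 lower without fine cluster 7 (median 1.495). Per cell 7 of that list were higher and 13 lower (median -0.50). The Bcl2 family gave 4 of 13 higher and 4 lower (median -0.04, or 0.31 without fine cluster 7), or 1 and 9 per cell (median -0.97). The S100 proteins gave 3 of 6 higher and 0 lower (median 0.16), or 2 and 4 per cell (median -0.77).

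Of the markers of other cells not yet given, 1 of 4 platelet genes was lower and 0 were higher, 1 T and NK cell gene was tested and was higher, 1 eosinophil, basophil and mast cell gene was tested and did not pass, and of 7 genes of tooth, bone and stroma 0 passed.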
